A study of Homo sapiens with 6 samples.

Results

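The 9 genes described here are the 4 Janus kinase genes JAK1, JAK2, JAK3 and TYK2, the signal transducer genes STAT3, STAT5A, STAT5B and STAT6, and SOCS1, the gene of a JAK inhibitor. They were chosen by gene symbol out of 23844 gene symbols, and all 9 were among the 12337 genes with at least 1 FPKM (fragments mapped to a transcript, scaled to its length and to the size of the library) in at least 1 library. PolyA RNA was sequenced from the human B cell lines DAUDI, a model of Burkitt lymphoma, and DOHH2, a model of follicular lymphoma, both bought from ATCC. Of each line there was 1 library labelled WT, 1 from cells resistant to idelalisib, a drug against the PI3K delta kinase, and 1 from cells resistant to ibrutinib, a drug against the BTK kinase. No label states a drug dose, a time, or whether the resistant cells were clones. The comparisons ask how the resistant libraries differ from the WT-labelled library of their line, from each other, and between lines. With 1 library per group, a difference between 2 libraries has no replicate check.

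The WT-labelled libraries stood apart from the resistant libraries of the lines on their labels. Across the 12337 genes, and genes are not independent replicates, Pearson's r was 0.958 between both WT-labelled libraries. It was 0.943 between the resistant DAUDI libraries, 0.968 between the resistant DOHH2 libraries, 0.815 to 0.835 between resistant libraries of different lines, and 0.698 to 0.723 between a WT-labelled and a resistant library. Differences from a WT-labelled library are given as differences from that library, and the origin of the culture and resistance cannot be told apart in it. All 10 B cell markers examined had at least 1 FPKM in every library, with a summed level of 1573 to 2543 FPKM. Of 10 T and NK cell markers 1 reached 1 FPKM in each library (summed 1.45 to 7.64 FPKM), with CD3D and NCR1 at 0 in all 6. It was CD4 in the WT-labelled DAUDI and DOHH2 libraries (3.51 and 7.30 FPKM) and in resistant DAUDI (1.21 and 1.95 FPKM). In resistant DOHH2 it was CD3E (1.32 and 2.55 FPKM). Of 10 myeloid markers, 1 and 2 reached 1 FPKM in the WT-labelled libraries (summed 16.3 to 32.3 FPKM over all 6). The count was 6 and 5 in resistant DAUDI (idelalisib, ibrutinib) and 2 and 2 in resistant DOHH2. LYZ stood at 15.0 and 13.0 FPKM in resistant DAUDI and at most 0.199 FPKM elsewhere. CD33 stood at 29.1 and 26.2 FPKM in resistant DOHH2 and at 2.29 and 10.6 FPKM in resistant DAUDI. Its WT-labelled level was at most 0.0326 FPKM. CD68 went the other way, at 16.1 and 18.7 FPKM with the WT label and 1.84 to 4.29 FPKM with resistance. The 10 stromal and epithelial markers summed to 27.7 and 28.5 FPKM in the WT-labelled libraries, nearly all of it CDH1, and to 2.57 to 7.51 FPKM in the resistant ones. The 10 erythroid markers summed to 7.60 FPKM in the WT-labelled DOHH2 library and to at most 0.145 FPKM in the others. In the WT-labelled DOHH2 library HBB, HBA1 and HBA2 stood at 3.39, 2.05 and 1.96 FPKM, and HBG1, HBG2 and AHSP were at 0 in all 6. The part of these markers in the differences below was not tested. In bulk RNA, fewer cells of a type and less RNA per cell cannot be told apart.

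Cytokine receptors have no kinase activity of their own and carry JAK proteins on their cytoplasmic tails. A bound cytokine brings the JAKs together, they phosphorylate the receptor, and STAT proteins dock there, are phosphorylated, pair up and enter the nucleus as transcription factors. SOCS1 is itself induced by STATs and binds and blocks JAKs, which closes a feedback loop. In B cells JAK1 and JAK3 serve the receptors of the common gamma chain, JAK2 and STAT6 or STAT3 are known for mutations and gains in lymphomas, and SOCS1 is often mutated there.

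JAK2 and STAT3 mRNA was lower in all 4 resistant libraries than in either WT-labelled library, and STAT5B mRNA was higher in all 4. STAT5A and SOCS1 went apart between the lines: in DOHH2 resistant libraries STAT5A was high and SOCS1 close to 0, and in DAUDI resistant libraries the order was turned. JAK1, TYK2 and STAT6 were the most even of the 9 genes over the 6 libraries.

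**Figure D1:**
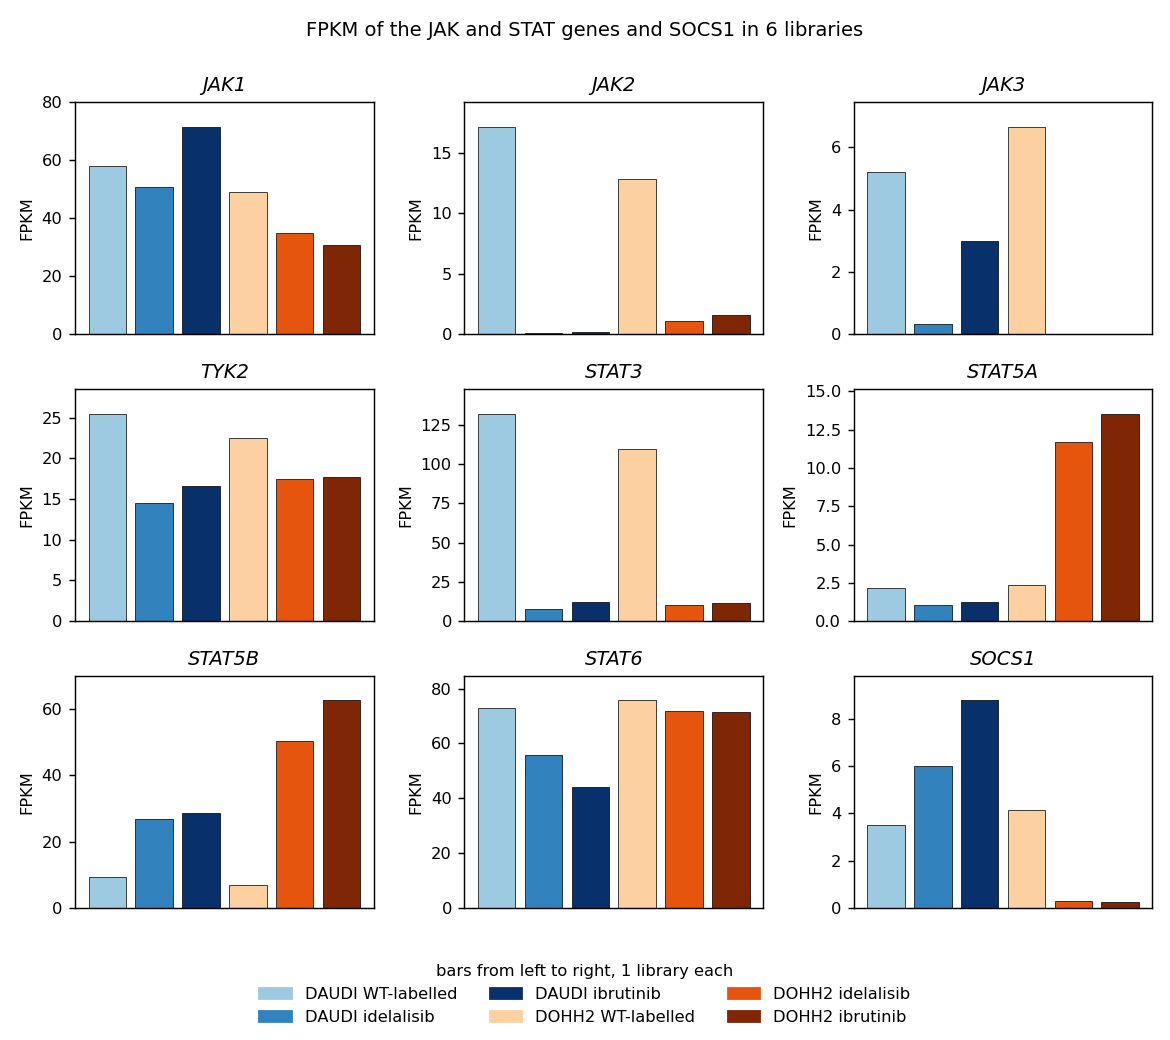
FPKM (linear axis from 0, with its own scale per gene) of the 9 genes in the 6 libraries, 1 bar per library, so that there are no error bars. JAK2 and STAT3 are tall in both WT-labelled libraries only, STAT5B in the 4 resistant ones, STAT5A in the 2 resistant DOHH2 libraries, and SOCS1 is near 0 there.

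JAK2 is the kinase of the interferon gamma, erythropoietin and common beta chain receptors. In DAUDI it stood at 17.2 FPKM in the WT-labelled library, 0.120 FPKM in the idelalisib-resistant and 0.157 FPKM in the ibrutinib-resistant library. In DOHH2 it stood at 12.8, 1.14 and 1.59 FPKM in the same order. No resistant library came near a WT-labelled one, and the resistant DAUDI libraries were lowest of all. The WT-labelled level was 143 and 110 times the idelalisib-resistant and ibrutinib-resistant level in DAUDI, and 11.3 and 8.09 times in DOHH2. In limma, which took both resistant libraries of a line as replicates and assumed that the lone WT-labelled library varies like them, JAK2 fell by 3.997 (SE 0.16, adjusted p = 0.00117) in DAUDI and by 2.56 (SE 0.16, adjusted p = 0.00313) in DOHH2. These and all later changes are differences of log2(FPKM + 1), which understate the ratio of genes at low levels, and adjusted p-values are Benjamini-Hochberg values over the 12337 genes. Over 15 other settings the adjusted p of JAK2 stayed at or under 0.0231 in DAUDI and 0.0282 in DOHH2.

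JAK3, the kinase of the common gamma chain, was a low-level gene throughout. It stood at 5.21, 0.330 and 2.98 FPKM in DAUDI (WT-labelled, idelalisib, ibrutinib), and at 6.65, 0.00541 and 0 FPKM in DOHH2, where the ibrutinib-resistant library lists it at 0. The ibrutinib-resistant DAUDI library thus lay between the WT-labelled libraries and the other resistant ones. In limma the resistant libraries differed from the WT-labelled one by -1.43 (SE 0.75, adjusted p = 0.212) in DAUDI and by -2.93 (SE 0.75, adjusted p = 0.0571) in DOHH2, and neither passed 0.05. The DOHH2 value passed in 8 of 15 other settings, among them both other scalings (adjusted p = 0.0430 and 0.0455), and without either resistant DAUDI library (adjusted p = 0.00359 and 0.00338). The DAUDI value was -0.64 (adjusted p = 0.0215) without the idelalisib-resistant library and -2.22 (adjusted p = 0.00361) without the ibrutinib-resistant one. With a resistant DAUDI library left out, the spread of JAK3 comes from the resistant DOHH2 pair alone, at 0.00541 and 0 FPKM, so that these 4 p-values say nothing of the spread in DAUDI and are no support for a change.

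JAK1, the partner of JAK3 and of most other JAKs on their receptors, was the highest JAK gene in every library. Its levels were 57.9, 50.8 and 71.5 FPKM in DAUDI and 49.2, 35.1 and 30.8 FPKM in DOHH2, again in the order WT-labelled, idelalisib and ibrutinib. The resistant DAUDI libraries lay on either side of their WT-labelled library, and those of DOHH2 below theirs. JAK1 differed by 0.06 (SE 0.26, adjusted p = 0.875) in DAUDI and by -0.57 (SE 0.26, adjusted p = 0.176) in DOHH2 and passed in neither.

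TYK2, the kinase of the type I interferon, IL-10 and IL-12 receptors, stood at 25.5, 14.5 and 16.6 FPKM in DAUDI, against 22.4, 17.5 and 17.7 FPKM in DOHH2. The 4 resistant libraries were all below the WT-labelled ones and close together. TYK2 fell by 0.68 (SE 0.13, adjusted p = 0.031) in DAUDI. In DOHH2 it differed by -0.34 (SE 0.13, adjusted p = 0.131). The DAUDI call was lost with the drug as a term (adjusted p = 0.0834) and without the idelalisib-resistant or the ibrutinib-resistant DOHH2 library (adjusted p = 0.126 for both).

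The make-up of the JAK family followed from these levels. JAK2 gave 16.2% of the summed FPKM of the 4 kinases in the WT-labelled DAUDI library, against 0.183% and 0.172% in the resistant ones, and 14.1% against 2.12% and 3.17% in DOHH2. JAK1 gave 54.7% and 54.0% in the WT-labelled libraries, 77.3% and 78.3% in resistant DAUDI and 65.3% and 61.6% in resistant DOHH2. The ratio of JAK1 to JAK2 mRNA was 3.37 and 3.83 in the WT-labelled libraries, 423 and 456 in resistant DAUDI, and 30.8 and 19.4 in resistant DOHH2. FPKM is scaled to transcript length, so that levels of different genes can be set side by side within a library.

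**Figure D2:**
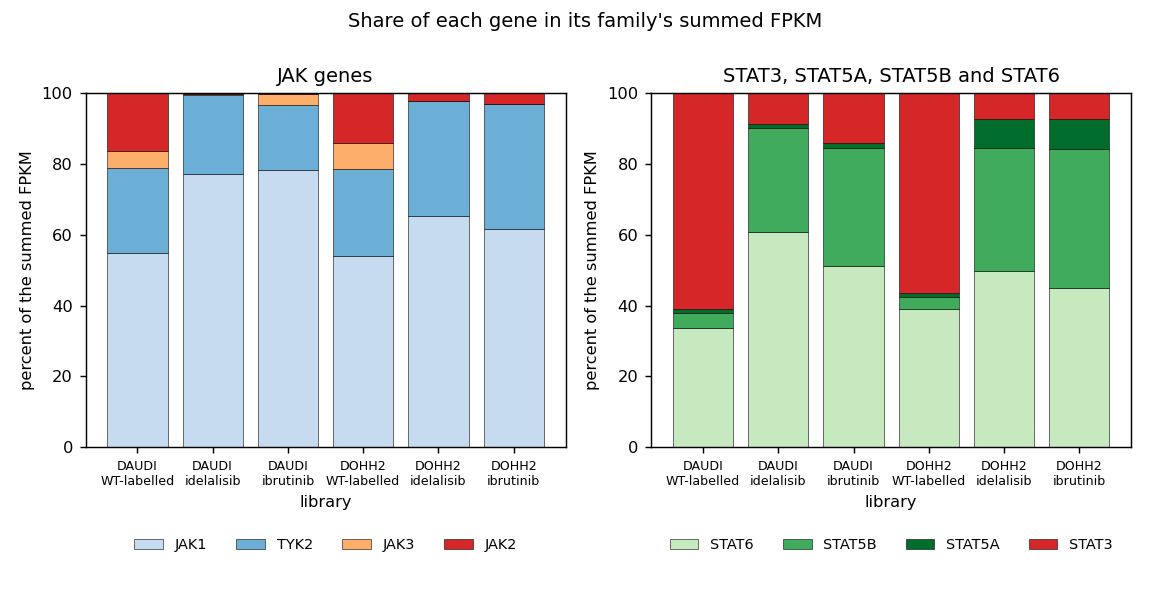
Percent of the summed FPKM of the 4 JAK genes (left) and of STAT3, STAT5A, STAT5B and STAT6 (right) in each of the 6 libraries, 1 stacked bar per library. JAK2 takes 16.2% and 14.1% in the WT-labelled libraries and at most 3.17% in the resistant ones, and STAT3 goes from 61.0% and 56.4% to at most 14.2%.

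STAT3, which carries signals of the IL-6, IL-10 and IL-21 receptors, was the highest of the 4 STAT genes in the WT-labelled libraries. Its level was 132 FPKM in the WT-labelled DAUDI library, 8.01 FPKM in the idelalisib-resistant and 12.3 FPKM in the ibrutinib-resistant library. In DOHH2 it was 109.7, 10.5 and 11.7 FPKM. The 4 resistant libraries were close to each other across the lines and all far below the WT-labelled libraries, by a factor of 16.5 and 10.8 in DAUDI and of 10.4 and 9.36 in DOHH2. STAT3 fell by 3.61 (SE 0.29, adjusted p = 0.00549) in DAUDI and fell by 3.19 (SE 0.29, adjusted p = 0.007) in DOHH2. The DAUDI call held in 15 of 15 other settings. The DOHH2 call was lost in 2 of 15, without the idelalisib-resistant (adjusted p = 0.066) or the ibrutinib-resistant DOHH2 library (adjusted p = 0.0614), at nearly the same difference.

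STAT3 was listed as 3 isoforms, and they differ in the short stretches shown here in capitals, since these separate the full-length STAT3 alpha from STAT3 beta, whose shifted frame replaces the C-terminal transactivation domain. Each sequence below runs from the end of 1 exon into the start of a later exon. In the reference transcripts (GENCODE v29, GRCh38, minus strand of chromosome 17), the full form has both stretches. The form without the serine codon lacks the last 3 bases of 1 exon (exon at chr17:42322285-42322494 against chr17:42322282-42322494). The beta form lacks the first 50 bases of another (chr17:42316789-42316851 against chr17:42316789-42316901).
STAT3 full form: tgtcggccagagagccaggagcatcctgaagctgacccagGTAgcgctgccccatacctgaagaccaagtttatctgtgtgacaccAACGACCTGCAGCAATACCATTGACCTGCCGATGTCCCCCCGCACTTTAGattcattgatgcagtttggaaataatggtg
STAT3 without the serine codon: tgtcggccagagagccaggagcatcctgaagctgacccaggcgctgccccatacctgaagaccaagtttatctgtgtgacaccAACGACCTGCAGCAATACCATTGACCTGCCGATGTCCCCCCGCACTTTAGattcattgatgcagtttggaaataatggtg
STAT3 beta: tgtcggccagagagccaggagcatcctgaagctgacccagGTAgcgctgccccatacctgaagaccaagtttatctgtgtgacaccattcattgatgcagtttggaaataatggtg
The reference did not pair the deposited isoforms with these transcripts 1 to 1, and the isoforms are named here from background knowledge of their RefSeq records. The full-length alpha form (NM_139276) gave 58.2%, 65.7% and 59.7% of STAT3 FPKM in DAUDI and 56.9%, 65.5% and 63.6% in DOHH2. The form without the serine codon (NM_003150) gave between 22.6% and 29.1% in the 6 libraries, with no order by state. The beta form (NM_213662) gave 17.08% and 17.01% in the WT-labelled libraries, 11.7% and 11.2% in resistant DAUDI and 9.54% and 13.3% in resistant DOHH2. All 3 forms were thus lower in the resistant libraries, and alpha remained the main one. There is 1 library per state, and the split of reads over isoforms that share nearly all their bases is an estimate of the authors' program.

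STAT5A and STAT5B are neighbouring genes of closely related proteins that carry signals of IL-2, IL-7 and growth factor receptors. Of the 4252 stretches of 50 bases in the STAT5A transcript, 507 (11.9%) also occur in STAT5B, with a longest identical run of 429 bases, so that reads could be split between both genes and their separate levels are uncertain. STAT5A had 0.608 to 0.841 of the read coverage per FPKM of a typical isoform of its library, and STAT5B 0.953 to 0.969. STAT5B stood at 9.37, 26.8 and 28.6 FPKM in DAUDI, against 6.80, 50.4 and 62.5 FPKM in DOHH2 (WT-labelled, idelalisib, ibrutinib). All 4 resistant libraries were above both WT-labelled ones, those of DOHH2 highest. STAT5B rose by 1.47 (SE 0.18, adjusted p = 0.0125) in DAUDI and by 2.87 (SE 0.18, adjusted p = 0.00307) in DOHH2. The DAUDI call was lost without the idelalisib-resistant (adjusted p = 0.0594) or the ibrutinib-resistant DAUDI library (adjusted p = 0.0687).

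STAT5A stood at 2.14, 1.03 and 1.24 FPKM in DAUDI, against 2.36, 11.7 and 13.5 FPKM in DOHH2. The resistant DOHH2 libraries were far above the other 4, and the resistant DAUDI libraries lowest. STAT5A rose by 2.01 (SE 0.15, adjusted p = 0.00493) in DOHH2, a call kept in 15 of 15 other settings. In DAUDI it differed by -0.56 (SE 0.15, adjusted p = 0.0637), and this passed with both other scalings (adjusted p = 0.0386 and 0.0492) and with 3 groups, in which both WT-labelled libraries form 1 group (adjusted p = 0.00983). STAT5B mRNA was 4.37, 26.1 and 23.1 times that of STAT5A in DAUDI, and 2.88, 4.31 and 4.62 times in DOHH2.

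STAT6, the factor of the IL-4 and IL-13 receptors, was the most even of the 4 STAT genes. It stood at 73.0, 55.8 and 44.3 FPKM in DAUDI, against 75.7, 71.8 and 71.5 FPKM in DOHH2. The DOHH2 libraries were nearly level and the resistant DAUDI libraries lowest. STAT6 differed by -0.55 (SE 0.18, adjusted p = 0.0907) in DAUDI and by -0.08 (SE 0.18, adjusted p = 0.769) in DOHH2. Since STAT3 was so much lower, STAT6 held the largest share of the 4 STAT genes in all resistant libraries, 60.9% and 51.2% in DAUDI and 49.7% and 44.9% in DOHH2, against 33.7% and 38.9% in the WT-labelled ones. The ratio of STAT3 to the sum of STAT5A and STAT5B, which the uncertain split between the last 2 does not touch, was 11.5 and 12.0 in the WT-labelled libraries, 0.288 and 0.412 in resistant DAUDI and 0.170 and 0.154 in resistant DOHH2. Of 6 STAT6 isoforms, the main one (NM_003153) gave 85.2% to 89.2% in the 6 libraries.

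SOCS1 stood at 3.53, 6.02 and 8.77 FPKM in DAUDI, against 4.13, 0.293 and 0.240 FPKM in DOHH2 (WT-labelled, idelalisib, ibrutinib). Both resistant DAUDI libraries were above both WT-labelled ones, and both resistant DOHH2 libraries were below, by a factor of 14.1 and 17.2 against their own. SOCS1 fell by 2.02 (SE 0.25, adjusted p = 0.0127) in DOHH2. In DAUDI it differed by 0.87 (SE 0.25, adjusted p = 0.0674) and passed in 5 of 15 other settings, among them both other scalings (adjusted p = 0.0475 and 0.0344). The DOHH2 call was lost without the idelalisib-resistant (adjusted p = 0.0916) or the ibrutinib-resistant DOHH2 library (adjusted p = 0.0919). The effects of the lines differed by 2.89 (SE 0.35, adjusted p = 0.0353).

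The promoters of SOCS1, JAK2 and STAT3 are shown because these genes went together (JAK2 and STAT3) or turned between the lines (SOCS1). The windows run from 250 bases before to 50 after the RefSeq start site, on GRCh38.p14, and no motif here was tested for binding. They are chr16:11256155-11256454 (minus strand) for SOCS1, chr9:4985022-4985321 (plus strand) for JAK2 and chr17:42388393-42388692 (minus strand) for STAT3.
SOCS1: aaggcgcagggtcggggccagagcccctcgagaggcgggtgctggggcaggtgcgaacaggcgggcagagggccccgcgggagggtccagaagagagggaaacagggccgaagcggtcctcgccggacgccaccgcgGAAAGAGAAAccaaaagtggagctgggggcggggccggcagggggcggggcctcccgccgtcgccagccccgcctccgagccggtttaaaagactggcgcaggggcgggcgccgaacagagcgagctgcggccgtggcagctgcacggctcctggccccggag
JAK2: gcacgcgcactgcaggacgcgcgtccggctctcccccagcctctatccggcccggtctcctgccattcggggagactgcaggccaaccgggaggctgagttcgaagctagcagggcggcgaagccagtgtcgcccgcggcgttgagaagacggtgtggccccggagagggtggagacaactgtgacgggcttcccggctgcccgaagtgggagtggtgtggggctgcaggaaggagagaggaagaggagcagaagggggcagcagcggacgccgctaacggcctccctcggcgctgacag
STAT3: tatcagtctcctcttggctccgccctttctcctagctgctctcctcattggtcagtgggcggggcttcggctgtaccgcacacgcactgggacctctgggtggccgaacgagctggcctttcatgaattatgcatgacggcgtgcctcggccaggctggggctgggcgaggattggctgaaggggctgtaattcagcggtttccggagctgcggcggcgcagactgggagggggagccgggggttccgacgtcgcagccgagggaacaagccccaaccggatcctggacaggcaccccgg
The capitals mark a match to the core of interferon response elements, GAAA repeated after 2 bases of any kind, that starts 113 bases before the SOCS1 start site. The motif was chosen after this window was seen, and 3.57% of 34943 promoter windows of the same length hold it on either strand. The STAT motif TTCNNNGAA was found in 7.66% of all windows, and the STAT6 form of it with 1 more base in the middle in 6.46%. Neither has a match in the window scanned for each of the 9 genes, the one nearest its reference transcript start. JAK1, JAK2 and STAT5A have 3, 4 and 3 windows, and their other windows were not scanned. The window of STAT6 lies 1144 bases from the start of its reference transcript. The windows of SOCS1, JAK2 and STAT3 hold 74%, 69% and 65.3% G and C.

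Set against their WT-labelled library, 4 of the 9 genes were called in limma in DAUDI (JAK2, STAT3 and TYK2 lower, STAT5B higher) and 5 of 9 in DOHH2 (JAK2, STAT3 and SOCS1 lower, STAT5A and STAT5B higher). Of all 12337 genes 41.6% were called in DAUDI (22.3% higher, 19.4% lower) and 40% in DOHH2 (21% higher, 19% lower), so the share of members called is near the background in both lines. In the mean of both lines 6 of 9 passed (JAK2, JAK3, STAT3 and TYK2 lower, STAT5A and STAT5B higher), against 53.5% of all genes (29.8% higher, 23.6% lower). Of these, STAT5A was called in DOHH2 alone within a line. Over 16 other settings this mean call was lost in 5 for STAT5A and in 3 each for JAK3 and TYK2. JAK2, STAT3 and STAT5B kept it in all 16, while SOCS1 gained a call in 6 and STAT6 in 2. The median change of all genes was 0.12 in DAUDI and 0.05 in DOHH2. It went to -0.02 and -0.04 when libraries were rescaled by the median of ratios, a shift of over 0.1 in DAUDI, and every call of a member in these 2 comparisons kept its direction. Library by library, with a difference of at least 1 as the call and no test, the idelalisib-resistant DAUDI library had 1 of 9 genes higher and 3 lower, against 31.1% of all genes (15.3% higher, 15.8% lower). The ibrutinib-resistant one had 2 higher and 2 lower, against 34.9% (20.2% higher, 14.6% lower). In DOHH2 both resistant libraries had 2 higher and 4 lower, against 31.8% (16% higher, 15.7% lower) for idelalisib and 30.6% (14.9% higher, 15.7% lower) for ibrutinib. Both drugs are set against 1 shared WT-labelled library within a line.

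**Figure D3:**
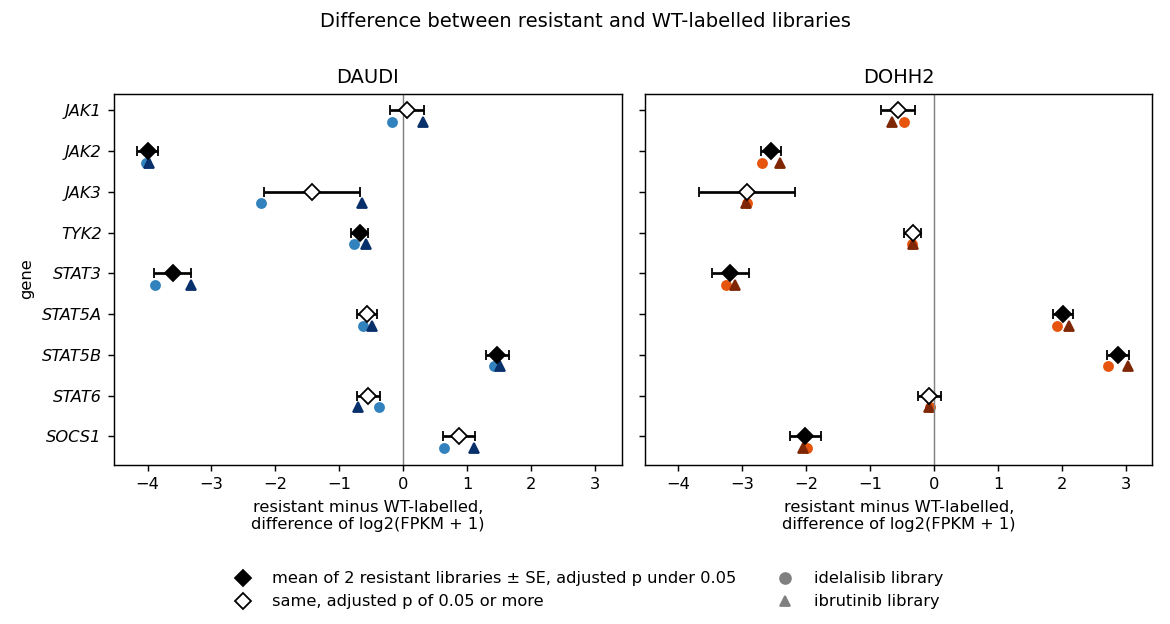
Difference of log2(FPKM + 1) between resistant and WT-labelled libraries for the 9 genes in DAUDI (left) and DOHH2 (right). Diamonds are the mean of both resistant libraries with the standard error of limma, filled where the adjusted p is under 0.05, and circles and triangles the idelalisib and ibrutinib libraries. STAT5B lies right of 0 and JAK2 and STAT3 left of 0 in both lines, while STAT5A and SOCS1 lie on opposite sides.

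The difference between the lines in these changes was itself tested, and 2 of 9 genes passed, against 9.6% of all genes (5.02% with the higher value in DAUDI, 4.58% with the lower). These were STAT5A, at -2.58 (SE 0.22, adjusted p = 0.0201, DAUDI change minus DOHH2 change), and SOCS1, given above. Between the WT-labelled libraries STAT5A and SOCS1 differed by only -0.10 and -0.18 (DAUDI minus DOHH2). For both genes the test thus largely repeats the comparison of the resistant libraries given below. JAK2, which was lower by more in DAUDI, gave -1.44 (adjusted p = 0.054), and STAT5B, which was higher by more in DOHH2, gave -1.40 (adjusted p = 0.0666). STAT3 gave -0.42 (SE 0.41, adjusted p = 0.562). The STAT5A call was lost in 5 of 13 other settings and that of SOCS1 in 4 of 13, with the highest adjusted p at 0.116 and 0.188. For STAT5A these are the drug as a term and the removal of any resistant library. For SOCS1 they are a pseudocount of 5, the drug as a term, and the removal of either resistant DOHH2 library.

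The resistant libraries were then compared between the lines, 2 against 2. JAK2 was lower in DAUDI by 1.05 (SE 0.13, adjusted p = 0.0195), STAT5A was lower by 2.67 (SE 0.13, adjusted p = 0.00358), STAT5B was lower by 0.99 (SE 0.14, adjusted p = 0.0258), and SOCS1 was higher by 2.71 (SE 0.20, adjusted p = 0.00774). These 4 of 9 genes stand beside 26.8% of all genes (13.8% higher in DAUDI, 13.1% lower). JAK1, at 0.86, and STAT6, at -0.52, did not pass (adjusted p = 0.0678 and 0.0846), nor did JAK3, TYK2 and STAT3. STAT5A kept its call in 16 of 16 other settings. JAK2 lost its call without any 1 of the 4 resistant libraries (adjusted p = 0.0863 to 0.111), as did STAT5B (adjusted p = 0.105 to 0.143), which also lost it with the drug as a term (adjusted p = 0.0561). SOCS1 lost it without either resistant DOHH2 library (adjusted p = 0.0907 and 0.0942). For single libraries, DAUDI and DOHH2 differed by at least 1 in 0 of 9 genes between WT-labelled libraries (1.09% of all genes, 0.486% higher in DAUDI and 0.608% lower), in 2 of 9 between idelalisib-resistant ones (18.7%, 9.53% higher and 9.14% lower; STAT5A and SOCS1) and in 6 of 9 between ibrutinib-resistant ones (22%, 13.7% higher and 8.31% lower; JAK1, JAK2, JAK3, STAT5A, STAT5B and SOCS1). SOCS1 mRNA in the resistant DAUDI libraries was 20.6 and 36.5 times that in the DOHH2 libraries resistant to the same drug, and STAT5A mRNA was 11.4 and 11.0 times higher in DOHH2.

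Between the drugs, JAK3 was the 1 gene of 9 that differed by at least 1 within a line. In DAUDI it was 9.01 times as high in the ibrutinib-resistant as in the idelalisib-resistant library, a difference of 1.58, where 3.5% of all genes were called (2.2% higher, 1.31% lower). In DOHH2 0 of 9 genes were called (1.08% of all genes, 0.665% higher and 0.413% lower). With a pseudocount of 5 the JAK3 difference was 0.58 and no longer a call. In limma over both lines, with the line as a block and 4 libraries, 0 of 9 genes and 0% of all genes passed, and all 9 had an adjusted p of 1. Unadjusted p-values were under 0.05 for 212 of the 12337 genes, and 1 gene passed when genes had to reach 5 FPKM. The largest of these drug differences among the 9 genes was that of JAK3 at 0.79 (SE 0.47), and the next that of STAT3 at 0.35 (SE 0.20).

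Of the other genes of the pathway, 88 in 11 lists, 63 were tested. The receptors of the common gamma chain family, which use JAK1 and JAK3, were the list with the lowest median in DOHH2. This list also holds IL13RA1, a receptor chain outside that family, which differed by -2.98 in DAUDI and -2.42 in DOHH2. Of 8 tested, 2 rose and 2 fell in resistant DAUDI (median -0.37), and 1 rose and 7 fell in resistant DOHH2 (median -3.01), beside a median of 0.12 and 0.05 over all genes. Of all genes 22.3% rose and 19.4% fell in DAUDI, and 21% rose and 19% fell in DOHH2. IL2RG, the common gamma chain itself, stood at 55.7, 74.6 and 84.6 FPKM in DAUDI, against 60.3, 0.242 and 0.317 FPKM in DOHH2. It fell by 5.58 (adjusted p = 0.00053) in DOHH2, and in DAUDI it differed by 0.51 (adjusted p = 0.0604). The effects of the lines on IL2RG differed by 6.09 (SE 0.19, adjusted p = 0.00576), a call lost with the drug as a term and without either resistant DOHH2 library (adjusted p up to 0.0786). The IL-4 receptor gene IL4R, chosen after its values were seen, stood at 16.2, 96.8 and 106 FPKM in DAUDI, against 20.3, 2.76 and 1.42 FPKM in DOHH2. It rose by 2.58 (adjusted p = 0.0133) in DAUDI and fell by 2.82 (adjusted p = 0.0112) in DOHH2, and both IL4R calls were lost without either resistant DAUDI library (adjusted p up to 0.0806 in DAUDI and 0.0567 in DOHH2). IL2RB, the shared chain of the IL-2 and IL-15 receptors, fell in both lines, from 30.8 to 0.0347 and 0.314 FPKM in DAUDI and from 33.7 FPKM to a listed 0 in both resistant DOHH2 libraries.

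Of 7 gp130 and IL-10 family receptors, which use JAK1, JAK2 or TYK2, 1 rose and 3 fell in DAUDI, and 2 rose and 1 fell in DOHH2. Of all genes 41.6% were called in DAUDI (22.3% higher, 19.4% lower) and 40% in DOHH2 (21% higher, 19% lower). With 7 genes the shares of this list are rough. IL12RB1 differed by 2.08 in DAUDI and 1.83 in DOHH2, IL6R by -1.13 and -1.05, and IL10RA by -2.11 and -0.90. IL27RA, a chain of the IL-27 receptor, fell by 1.42 (adjusted p = 0.0123) in DAUDI, from 2.23 to 0.175 and 0.235 FPKM, and rose by 0.91 (adjusted p = 0.0306) in DOHH2, from 2.46 to 6.26 and 4.85 FPKM. The rise of IL27RA in DOHH2 lost its call in 6 of 15 other settings (adjusted p up to 0.0923), among them the removal of any 1 resistant library, and the fall in DAUDI without either resistant DAUDI library (adjusted p = 0.0659 and 0.0671). Of 5 interferon receptor genes 0 passed in DAUDI (median 0.23) and 2 rose in DOHH2, IFNLR1 by 2.41 (adjusted p = 0.0199) and IFNAR2 by 0.85 (adjusted p = 0.0321). Both calls were lost without either resistant DOHH2 library (adjusted p up to 0.114 for IFNLR1 and 0.165 for IFNAR2). Of 4 common beta chain and homodimeric receptors, 1 fell in DAUDI, and 1 rose and 2 fell in DOHH2. IL3RA, the IL-3 receptor alpha chain, fell in both lines, from 5.77 to 0.072 and 0.289 FPKM in DAUDI and from 9.69 to 0.0772 and 0.159 FPKM in DOHH2. CSF2RB, the common beta chain, fell by 1.38 (adjusted p = 0.0151) in DOHH2 and differed by 0.11 (adjusted p = 0.672) in DAUDI, and EPOR, the erythropoietin receptor, rose by 0.54 (adjusted p = 0.0231) in DOHH2. Both DOHH2 calls were lost without any 1 of the 4 resistant libraries (adjusted p up to 0.0804 for CSF2RB and 0.0852 for EPOR). Of 16 ligand genes 5 were tested, and 1 rose and 4 fell in DAUDI and 0 rose and 4 fell in DOHH2. Of all genes 19.4% and 19% fell. IL6, IL7 and IL10 reached 1 FPKM in the WT-labelled libraries only, and IL15 in the ibrutinib-resistant DAUDI library only. The filter thus fixed the direction of these genes, and the counts of this list are no result. The ligand that rose in DAUDI was IL15 (by 0.91, adjusted p = 0.0164), named after its values were seen. In DOHH2 it differed by -0.09 (adjusted p = 0.626). IL15 was near the filter limit at best, at 0.0167, 0.746 and 1.08 FPKM in DAUDI, against 0.0639, 0 and 0.00201 FPKM in DOHH2. Its call was lost without either resistant DOHH2 library (adjusted p up to 0.0757). IL10, a ligand that acts through JAK1, TYK2 and STAT3, stood at 18.8, 0.0381 and 0.0278 FPKM in DAUDI, against 12.4, 0 and 0 FPKM in DOHH2.

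Among the other inhibitors, none of those named here was on opposite sides of its WT-labelled level in the lines as SOCS1 was. They were picked by the size of their change. In the same lists, some genes not named here had differences on opposite sides, none with a call in either line. SOCS3, which binds gp130 and blocks JAK signals to STAT3, stood at 25.5, 0 and 0.00773 FPKM in DAUDI, against 32.9, 0 and 0 FPKM in DOHH2, so that it fell by 4.72 (adjusted p = 0.000474) in DAUDI and fell by 5.08 (adjusted p = 0.000493) in DOHH2. The SOCS3 libraries that enter the spread of this fit are the resistant ones, at 0 or 0.00773 FPKM. Both SOCS3 p-values thus say nothing of the spread at the WT-labelled level and add no support to the difference in FPKM. SOCS7 rose in both lines, from 3.18 to 8.87 and 10.8 FPKM and from 3.57 to 9.87 and 8.73 FPKM. Of 6 genes in this list, 1 rose and 1 fell in each line. Of 10 genes of PIAS proteins, phosphatases and adaptors, 1 rose and 4 fell in each line. Beside this, 41.6% of all genes were called in DAUDI (22.3% higher, 19.4% lower) and 40% in DOHH2 (21% higher, 19% lower). With 10 genes the shares of this list are rough. PTPN1, a phosphatase of JAK2 and TYK2, fell from 202 to 13.9 and 18.4 FPKM in DAUDI and from 198 to 13.1 and 12.6 FPKM in DOHH2. PTPN6, the phosphatase SHP-1, fell from 106.7 to 1.62 and 3.23 FPKM and from 90.8 to 8.58 and 8.51 FPKM. PTPN2, a phosphatase of JAK1 and JAK3, fell from 48.7 to 19.6 and 24.1 FPKM and from 45.3 to 17.9 and 15.3 FPKM. All 3 were thus lower in the 4 resistant libraries, as JAK2 and STAT3 were. Without either resistant DOHH2 library the calls of PTPN2 (adjusted p up to 0.0876 in DAUDI and 0.0993 in DOHH2), SOCS7 (up to 0.0709 and 0.124) and, in DOHH2, PTPN6 (up to 0.0775) were lost, and without either resistant DAUDI library that of PTPN2 in DAUDI.

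Target genes of the STATs were taken from lists of textbook targets. Of 10 STAT3 targets tested, 1 rose and 6 fell in DAUDI and 1 rose and 7 fell in DOHH2 (medians -1.47 and -1.96), where 22.3% of all genes rose and 19.4% fell in DAUDI and 21% and 19% in DOHH2. BATF, an AP-1 family factor, stood at 64.2, 0.531 and 1.08 FPKM in DAUDI, against 58.0, 0 and 0.0419 FPKM in DOHH2. BCL6, the germinal centre repressor, rose from 7.76 to 44.0 and 50.9 FPKM in DAUDI and from 9.07 to 121 and 110.1 FPKM in DOHH2. Of 6 STAT5 targets 0 rose in either line, and 1 fell in DAUDI and 4 in DOHH2 (medians -0.64 and -1.72), while STAT5B rose in both. CCND2, the cyclin D2 gene, stood at 92.7, 0.0252 and 0.0798 FPKM in DAUDI, against 126.6, 0.505 and 0.689 FPKM in DOHH2. Of 7 STAT6 targets, 2 rose and 4 fell in DAUDI and 0 rose and 6 fell in DOHH2 (medians -2.46 and -2.82), with SOCS1 and IL4R among the 7. FCER2, the gene of the low affinity IgE receptor CD23, stood at 0.140, 10.3 and 18.1 FPKM in DAUDI, against 0.144, 0.137 and 0.170 FPKM in DOHH2, and rose in DAUDI by 3.68 (SE 0.37, adjusted p = 0.0087). IL4I1, an amino acid oxidase induced by IL-4, fell from 68.4 to 0.839 and 2.61 FPKM in DAUDI and from 76.6 to 0.135 and 0.0748 FPKM in DOHH2. The calls of FCER2 in DAUDI and of IL4I1 in both lines were lost without either resistant DOHH2 library (adjusted p of 0.0535 to 0.0552). The lists share genes, and no list was tested as a set.

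**Figure D4:**
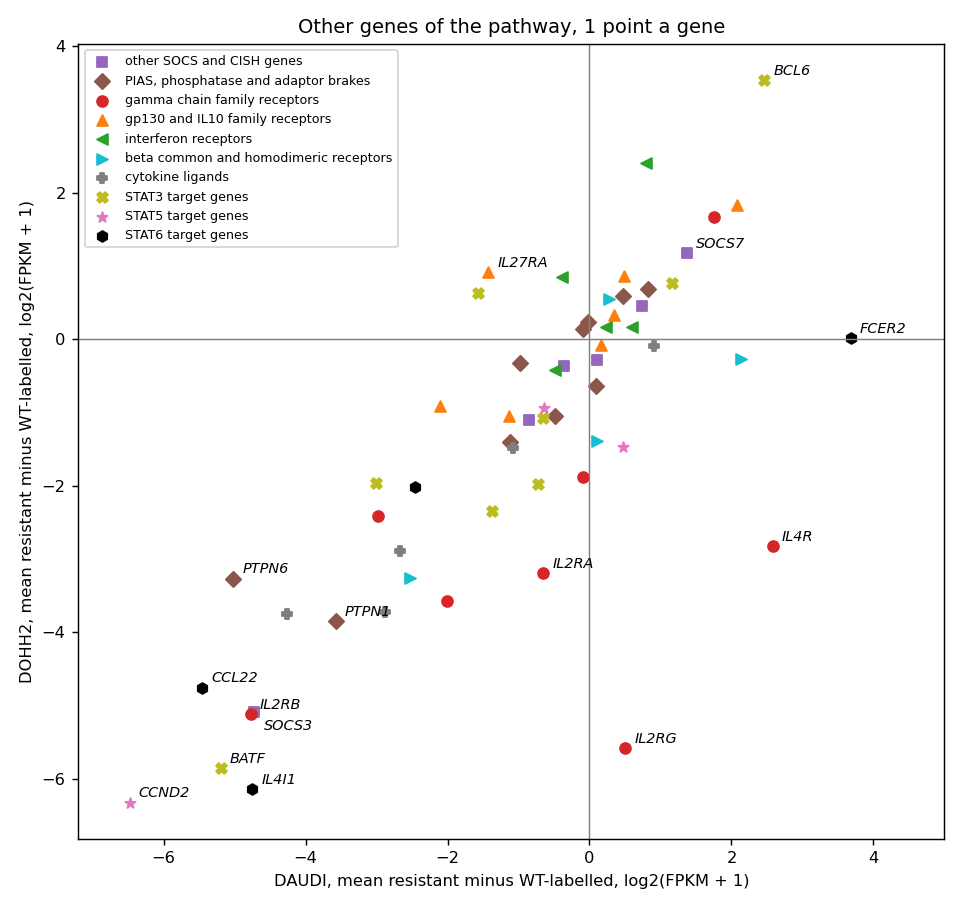
Mean difference of log2(FPKM + 1) between resistant and WT-labelled libraries in DAUDI (horizontal) and DOHH2 (vertical) for the tested pathway genes other than the STAT genes and the rest of the 9, 1 point per gene, drawn in the first list that holds it, with 2 resistant and 1 WT-labelled library per line. SOCS3, IL2RB, PTPN1 and CCND2 lie far below 0 in both lines, and IL4R lies right of and below 0 at 2.58 and -2.82, as does IL2RG at 0.51 and -5.58.

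STAT5B, STAT5A and STAT3 lie side by side on chromosome 17 (hg19, 40351195 to 40428424, 40439565 to 40463960 and 40465343 to 40540513), and their mRNA went in opposite directions in DOHH2. Of the 29 other tested genes within 500 kb of STAT3, with STAT5A and STAT5B not counted, 1 was higher by at least 1 and 6 were lower in the mean of resistant DAUDI (median -0.24), without a test. Of all genes 17.5% were higher and 15% lower by this rule. In DOHH2 0 of the 29 were higher and 9 lower (median -0.30), against 15.4% and 15.6% of all genes. CNTNAP1, 294 kb from STAT3, stood at 18.9, 0.425 and 0.821 FPKM in DAUDI, against 17.01, 0.243 and 0.247 FPKM in DOHH2. ATP6V0A1, a proton pump subunit gene 70.3 kb from STAT3, was listed at 0 in both resistant DOHH2 libraries, against 9.38 FPKM in the WT-labelled one, and stood at 8.09, 2.58 and 3.76 FPKM in DAUDI. The 500 kb window thus held genes that were lower, genes near 0 and, in DAUDI, 1 gene that was higher by at least 1.

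**Figure D5:**
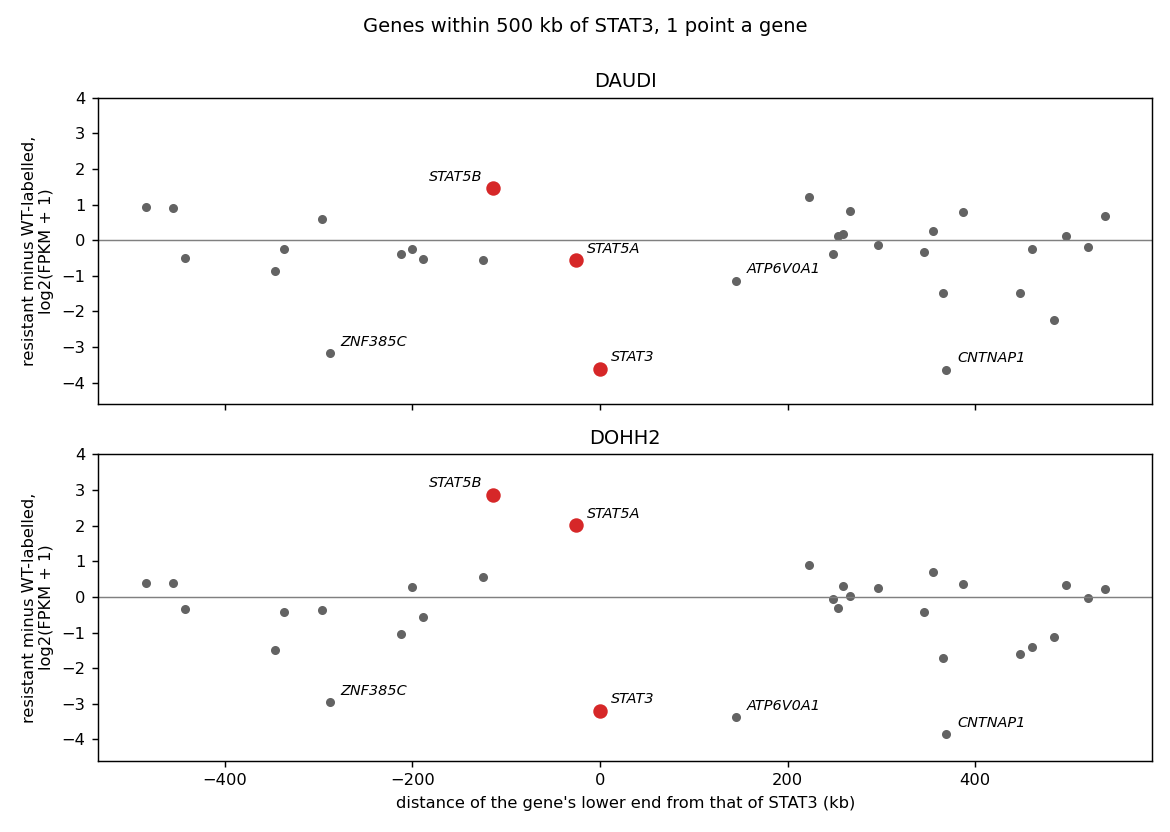
Mean difference of log2(FPKM + 1) between resistant and WT-labelled libraries (2 and 1 libraries per line) of STAT3, STAT5A, STAT5B and the 29 other tested genes within 500 kb of STAT3, by the distance of the gene's lower end from that of STAT3 in kb, in DAUDI (top) and DOHH2 (bottom). STAT3, CNTNAP1 and ZNF385C lie lowest in DAUDI, at -3.61, -3.63 and -3.17, and STAT5A and STAT5B lie at 2.01 and 2.87 in DOHH2.

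JAK2 lies on chromosome 9 (hg19, 4985245 to 5128183). By the same rule and beside the same shares of all genes (17.5% higher and 15% lower in DAUDI, 15.4% and 15.6% in DOHH2), of its 9 tested neighbours within 500 kb 0 were higher and 6 lower in DAUDI (median -1.17), and 0 higher and 4 lower in DOHH2 (median -0.92). CD274, the gene of the checkpoint ligand PD-L1, 322 kb away, stood at 17.4, 0.176 and 1.14 FPKM in DAUDI, against 16.0, 0.00861 and 0.00942 FPKM in DOHH2. PLGRKT, which lies between both, had 14.5, 5.43 and 6.44 FPKM in DAUDI, against 14.3, 4.57 and 3.99 FPKM in DOHH2. SOCS1 lies on chromosome 16 (hg19, 11348274 to 11350039), and of its 10 tested neighbours 3 were higher and 1 lower in DAUDI, and 0 higher and 4 lower in DOHH2 (medians 0.17 and -0.61). LITAF, 292 kb away, went as SOCS1 did, at 56.9, 95.5 and 141 FPKM in DAUDI, against 56.7, 3.76 and 3.80 FPKM in DOHH2. TXNDC11 had 22.0, 52.9 and 81.1 FPKM in DAUDI, against 21.5, 9.48 and 7.53 FPKM in DOHH2. RMI2, nearer to SOCS1 at 89.3 kb, was higher in resistant DAUDI, at 9.46, 26.2 and 38.1 FPKM. In DOHH2 it did not fall with SOCS1, at 9.48, 11.8 and 12.5 FPKM.

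For each of the 9 genes that ranged over at least 1 on the log2 scale, the tested genes with the most similar profile over the 6 libraries were found by the mean absolute distance of centred log2 values. With 6 libraries in 3 clusters, many genes share a profile, and the distance is a description only. The closest to JAK2 were SLC25A30, NFKBIZ and FNBP1L (distances 0.06, 0.12 and 0.13), and STAT3 ranked at 39 of all genes, at 0.33. The closest to STAT3 were SEPT8, ACOT2 and BOK-AS1, and to STAT5B SERPINB9, ZNF737 and PDE6D. The closest to SOCS1 were KCNH2, ERAP1 and TMEM63A. ERAP1, a peptidase that trims peptides for MHC class I, stood at 26.2, 38.8 and 53.3 FPKM in DAUDI, against 22.5, 6.46 and 6.67 FPKM in DOHH2, the same order of libraries as SOCS1 in DAUDI. STAT5A was closest to PPP2R3B, PSEN2 and N4BP3, JAK3 to PLXNA1, ACSL1 and PLEK, and JAK1 to NAPA, MR1 and AKAP17A.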

How the data were processed

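PolyA RNA of 6 libraries, 1 per line and state, was made with a directional kit, per the labels' protocols. Per the submitters' processing notes, TopHat2 and Cufflinks were used on hg19, with cutadapt and bcl2fastq. No version is named in the labels. The authors deposited FPKM per isoform, with a locus, a length, a coverage value, an estimate status and lower and upper bounds of FPKM, per the file headers. Of 6 values each, 2 of TYK2, 2 of STAT5B and 1 of SOCS1 lay outside their own bounds. No value of the other members did. The bounds entered no test. No counts were used, so the absolute depth is unknown; coverage per FPKM, relative to the WT-labelled DAUDI library, was 0.935 to 1.42.

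FPKM was summed over the isoforms of each gene symbol (43490 isoforms, 528 without a gene name). Genes that reached 1 FPKM in any library were tested as log2(FPKM + 1) with limma 3.58.1 in R 4.3.3 (empirical Bayes with trend, two-sided, Benjamini-Hochberg), on 4 groups, with 2 residual degrees of freedom from the resistant pairs. The drugs were compared over 4 libraries with line as a block. With 1 library a side, a call is a difference of at least 1, without a test. Nothing in the labels says that the libraries of a line came from separate cultures, so p-values measure only the spread between these libraries. The fit was tested on simulated data. Alternatives were other pseudocounts, filters, scalings, designs and leaving out each library.

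The 9 genes and all lists were chosen with earlier results of these data known. Pathway genes and neighbours were named by the size of their range or change within fixed lists or 500 kb, and IL4R and IL15 after their values were seen. The list of further STAT genes is not reported here. Sequences come from GENCODE v29 and RefSeq on GRCh38, whose coordinates were not mixed with those of hg19.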

Additional observations from a re-analysis of the deposited data

Results flagged for a closer look

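The change from the WT-labelled to the resistant libraries differed between the lines by a test of the difference itself (limma, DAUDI change minus DOHH2 change, adjusted p over 12337 genes) for 2 of the 9 genes and 5 other pathway genes. For SOCS1 the difference was 2.89 (SE 0.35, adjusted p = 0.0353), with both resistant DAUDI libraries above and both resistant DOHH2 libraries below their WT-labelled library. For STAT5A it was -2.58 (SE 0.22, adjusted p = 0.0201), with the directions turned. IL2RG gave 6.09 (SE 0.19, adjusted p = 0.00576), and IL4R, named after its values were seen, gave 5.40 (SE 0.46, adjusted p = 0.0201). FCER2 gave 3.67 (SE 0.52, adjusted p = 0.046) and IL27RA gave -2.34 (SE 0.24, adjusted p = 0.028). Resistant DAUDI minus resistant DOHH2 gave much the same values. They were 2.71 for SOCS1, 5.98 for IL2RG, 5.09 for IL4R, 3.67 for FCER2 and -2.44 for IL27RA. The WT-labelled libraries were close to each other for these genes and for STAT5A. The test thus largely repeats the comparison of the resistant libraries and is no separate evidence. IL6 gave 0.41 (SE 0.05, adjusted p = 0.0416), but it is listed at 0 in all 4 resistant libraries and stood at 1.11 and 1.80 FPKM in the WT-labelled ones, so that this value is the difference between those 2 libraries. Each of these calls was lost in some other settings: in 4 of 13 for SOCS1, 5 of 13 for STAT5A, 3 of 13 for IL2RG (adjusted p up to 0.0786), 5 of 13 for IL4R (up to 0.0861), 6 of 13 for FCER2 (up to 0.211), 6 of 13 for IL27RA (up to 0.0942) and 5 of 12 for IL6 (up to 0.181). For all 7 genes these include the drug as a term and the removal of either resistant DOHH2 library.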

How the results depend on the processing

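No value of the 9 genes or of the pathway genes named that passed its threshold, as reported or under an alternative run, changed its direction. Values near 0 that never passed could change sign, such as that of JAK1 in DAUDI (-0.18 to 0.30). Of 765 limma values of the 9 genes, 681 kept their side of the threshold, 40 lost and 44 gained a call. Of 567 values from single libraries 556 were kept, 9 lost and 2 gained. Counts of all genes moved more. With the drug as a term, 1608 genes were higher in resistant DAUDI (2748 as reported) and 1512 in resistant DOHH2 (2594), 874 higher and 762 lower in resistant DAUDI than in resistant DOHH2 (1698 and 1614), and 10 and 14 differed in effect between lines (619 and 565). With 3 groups, 4182 were higher in DAUDI and 2593 between lines. Without a filter 985 effects were higher in DAUDI, and at 5 FPKM 396, with 1 gene lower between drugs. Without a line term the mean effect had 2249 higher and 1885 lower (3680 and 2917). Leaving out 1 library gave 800 to 2912 higher and 1227 to 2364 lower in DAUDI, 625 to 2550 and 1023 to 2391 in DOHH2, 155 to 1714 and 313 to 1613 between lines, 0 to 1042 and 0 to 419 for the difference of effects, and 1633 to 3943 and 1696 to 2965 for the mean effect. For single libraries, a pseudocount of 5 gave 839 higher and 986 lower (idelalisib against WT-labelled, DAUDI), 1243 and 942 (ibrutinib, DAUDI), 927 and 1011 (idelalisib, DOHH2), 853 and 988 (ibrutinib, DOHH2), 87 and 90 between drugs in DAUDI, 37 and 33 in DOHH2, and 36 and 49, 482 and 509, and 823 and 463 between lines (WT-labelled, idelalisib, ibrutinib). A pseudocount of 0.1 gave 573 and 244 between drugs in DAUDI, 238 and 112 in DOHH2, and 121 and 174 between WT-labelled libraries. The split of ibrutinib-resistant against WT-labelled DAUDI went from 2497 higher and 1804 lower to 1933 and 2168 with the median of ratios. That between drugs in DAUDI went from 271 and 161 to 178 and 177, and to 177 and 181 with the upper quartile. With the highest isoform only, 79 were lower between drugs in DOHH2. The cause was not tested; fewer libraries leave fewer residual degrees of freedom. The drug comparison could not be refitted without a resistant library, nor a line's comparison without its WT-labelled library. Leaving out a resistant library leaves 1 library against 1 in its line, with the spread taken from the other line's pair. No paired analysis by replicate number was possible because the labels carry none; the line as a block and the drug as a term are the fits that pair libraries by label. Depth is unknown, so values near 0 FPKM have no stated floor.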
